A study of Mus musculus with 16 samples.

Results

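The expression of 10 genes of the muscle acetylcholine receptor and its clustering machinery was followed in 16 RNA-seq libraries of C2C12, a line of mouse myoblasts that form multinucleated myotubes once serum is reduced. The genes were chosen by symbol and found by Ensembl identifier, 10 of the 49585 genes in each of 2 count tables: the subunit genes *Chrna1*, *Chrnb1*, *Chrnd*, *Chrng* and *Chrne*, and *Agrn*, *Lrp4*, *Musk*, *Dok7* and *Rapsn*. The first table held wild-type (WT) cells and AMPK-KO cells, in which *Prkaa1* and *Prkaa2*, the genes of both catalytic α subunits of the energy sensor AMPK, were knocked out by CRISPR-Cas9, each as myoblasts (d0, day 0) and after 8 days of differentiation (d8, the myotube stage), with 2 libraries per group. For AMPK-KO cells d8 names the day in differentiation medium, not the form of the cells. The second table held TET2-WT and TET2-S97E cells, both AMPK-/- and both with a FLAGBirA tag and an EGFP coding sequence knocked in at the endogenous *Tet2* gene, all harvested at d0, with 2 clones per genotype and 2 libraries per clone. TET2 is a DNA demethylating enzyme, and S97E replaces the serine that AMPK phosphorylates with glutamic acid, a mimic of the phosphorylated residue. The study asked whether AMPK acts on myogenic differentiation through this residue. The study worked with independent AMPK-KO lines and the labels did not tie a line to a library, so the AMPK-KO replicates of a day may come from different lines. The labels also did not say whether separate cultures gave the libraries of a group, so the spread between them may be technical. The cells were grown without nerve, so a junction could not form.

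At the neuromuscular junction, acetylcholine released by the motor nerve opens a receptor built from α1, β1, δ and either γ (embryonic muscle) or ε (adult muscle). Agrin, released by the nerve and also made by muscle, binds LRP4, which activates the receptor kinase MuSK, and DOK7 binds MuSK inside the cell and sustains its activity. Rapsyn is the scaffold that holds the clustered receptors beneath the membrane. In cultured muscle the subunit genes are known to be switched on with differentiation by myogenic factors such as MYOD1 and myogenin, which bind E-boxes, and in adult muscle the ε gene is known to be driven at the synapse through the N-box and ETS factors.

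Stretches before the RefSeq start of 6 genes are shown: *Dok7* on chromosome 5, which was called in both comparisons of AMPK-KO with WT cells, *Chrng* on 1, *Chrna1* on 2, *Musk* on 4 and *Chrnb1* on 11, which hold 3 E-boxes each, and *Chrne* on 11, which holds the N-box. Each runs 5′ to 3′ on the strand of the gene, from 180 to 24 bases before the RefSeq start site (GRCm38.p6), and capitals mark E-boxes (CANNTG, which reads the same way on both strands as a pattern) and, for *Chrne*, the N-box (CCGGAA, searched on both strands). The *Chrng* stretch lies inside the gene as GENCODE draws it, since its GENCODE start is upstream of its RefSeq start.
Chrna1, chr2:73580362-73580518, minus strand: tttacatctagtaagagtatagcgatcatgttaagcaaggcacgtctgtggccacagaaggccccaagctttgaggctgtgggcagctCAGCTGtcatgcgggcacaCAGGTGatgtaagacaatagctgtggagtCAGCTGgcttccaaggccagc
Chrnb1, chr11:69795961-69796117, minus strand: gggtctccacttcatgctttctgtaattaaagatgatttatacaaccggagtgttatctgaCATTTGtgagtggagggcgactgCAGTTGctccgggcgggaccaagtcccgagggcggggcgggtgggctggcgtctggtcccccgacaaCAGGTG
Chrng, chr1:87205631-87205787, plus strand: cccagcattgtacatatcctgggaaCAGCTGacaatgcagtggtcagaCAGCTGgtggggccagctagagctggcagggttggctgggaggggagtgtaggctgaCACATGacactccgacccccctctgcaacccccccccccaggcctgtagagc
Dok7, chr5:35056586-35056742, plus strand: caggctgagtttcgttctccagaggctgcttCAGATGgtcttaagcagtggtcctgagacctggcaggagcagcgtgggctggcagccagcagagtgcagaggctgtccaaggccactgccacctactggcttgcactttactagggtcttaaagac
Musk, chr4:58285782-58285938, plus strand: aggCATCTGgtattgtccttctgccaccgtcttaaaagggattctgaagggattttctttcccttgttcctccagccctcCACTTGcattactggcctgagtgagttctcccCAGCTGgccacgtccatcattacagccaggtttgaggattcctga
Chrne, chr11:70619218-70619374, minus strand: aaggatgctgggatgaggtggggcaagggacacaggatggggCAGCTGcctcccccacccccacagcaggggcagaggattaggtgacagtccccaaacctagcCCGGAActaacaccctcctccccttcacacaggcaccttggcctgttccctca
*Chrna1*, *Chrnb1*, *Chrng* and *Musk* each held 3 E-boxes in their window of 300 bases (250 before the start and 50 after), a number that 17.6% of all 32851 RefSeq windows reached. *Chrna1* and *Chrng* each held 2 copies of the form CAGCTG, as did 1.9% of all windows. The *Chrne* window held 1 E-box, the form CAGCTG at 138 bases before the start, and the N-box 76 bases before the start. At least 1 E-box was in 72.3% of all windows and CCGGAA, on either strand, in 14.9%. The *Dok7* window shown held 1 E-box, 149 bases before the start. A further *Dok7* window and 2 of *Agrn* held 1 E-box or none, and *Chrnd*, *Rapsn* and *Lrp4* were not in the table of windows. These matches describe letters, not sites that were shown to be bound.

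**Figure D1:**
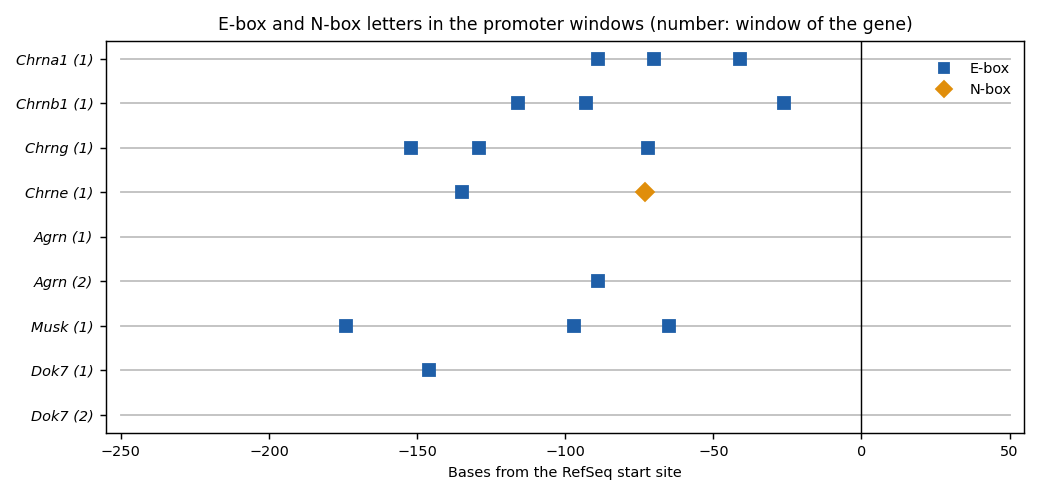
Matches in the 9 promoter windows of 7 genes; the x axis gives bases from the RefSeq start site (vertical line), grey lines are the windows, squares E-boxes and the diamond the N-box. The rows of *Chrna1*, *Chrnb1*, *Chrng* and *Musk* carry 3 E-boxes each, and the N-box is in the row of *Chrne*.

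The receptor genes lie partly together on the mouse genome (GRCm38, GENCODE M21). *Chrnd* (chr1:87190607-87200070) and *Chrng* (chr1:87204657-87212694) are neighbours on the plus strand, separated by 4587 bases. *Rapsn* (chr2:91035620-91045729) and *Lrp4* (chr2:91457511-91513779) are on the plus strand of chromosome 2, where *Chrna1* (chr2:73563215-73580338) is on the minus strand. *Chrnb1* (chr11:69784036-69795943) and *Chrne* (chr11:70614883-70619216) are on the minus strand of chromosome 11. *Musk* is at chr4:58285960-58374303 on the plus strand, *Agrn* at chr4:156165290-156197488 on the minus strand and *Dok7* at chr5:35056766-35087839 on the plus strand. Counts covered the exons of each gene. Only 4 exonic bases of *Rapsn* overlapped another gene, *Gm13778* on the opposite strand, and no other member shared exonic bases with an annotated neighbour.

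The depth was 17883417 to 24663079 counts for WT and AMPK-KO libraries and 19801909 to 37790358 for TET2 libraries. Levels are given as CPM, counts relative to the library size, which was scaled by TMM within each table, so levels of the first and second table are not on a common scale. The targeted genes were looked at first. *Prkaa1* had 159 and 159 CPM in WT myoblasts, 79.7 and 78.0 CPM in AMPK-KO myoblasts, and 126 and 125 against 83.3 and 82.5 CPM at d8. *Prkaa2* had 1.69 and 1.79 against 0.209 and 0.421 CPM at d0, and 6.22 and 10.1 against 1.26 and 0.826 CPM at d8. Both genes were thus lower in every AMPK-KO library than in the WT libraries of the day, while transcripts of *Prkaa1* remained. In the TET2 libraries, all AMPK-/-, *Prkaa1* had 73.4 to 104 CPM and *Prkaa2* 0.454 to 1.73 CPM. The second table held no cells with intact AMPK for comparison. Gene counts do not show the edited codon of *Tet2*, which had 22.5 to 58.4 CPM in TET2-WT and 7.88 to 22.1 CPM in TET2-S97E libraries.

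Cell identity was checked with marker lists. All 10 myoblast and myotube markers had more than 3 counts in 15 of the 16 libraries, and the desmin gene *Des* or the skeletal actin gene *Acta1* was the most abundant of them in each library. The motor neuron genes *Chat*, *Slc18a3* and *Mnx1* were at 0 in all 16 libraries, and the 7 motor neuron markers together had at most 34 counts, all of them *Slc5a7* in WT d0 replicate 1. Of the 5 Schwann markers, *Sox10* was at 0 in 14 of 16 libraries, and none passed 279 counts, the count of *Mbp* in TET2-WT clone 1 replicate 2. In that library 4 of the 5 had more than 3 counts. Some libraries stood apart from their replicate. The 10 muscle markers summed to 3100 CPM in AMPK-KO d8 replicate 1 and to 12138 CPM in replicate 2. In TET2-WT clone 2 replicate 2, *Acta1* had 111 CPM, against 2.67, 3.90 and 13.0 CPM in the other TET2-WT libraries. In bulk RNA, fewer cells of a type and less RNA per cell cannot be told apart.

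*Chrna1* was the most abundant of the 10 transcripts per length in 15 of the 16 libraries, and *Chrne* was nearly absent from all of them. In TPM, a level that also divides by exon length, *Chrna1* stood at 488 ± 116 TPM in WT myoblasts (mean ± SD, n = 2), followed by the level of *Rapsn* at 136 ± 38.7 TPM, *Chrnb1* at 105 ± 41.8 TPM and *Chrnd* at 86.2 ± 67.6 TPM. The levels of these last 3 genes lay within 1 SD of their neighbour in the order. *Musk* (26.2 ± 1.14 TPM), *Lrp4* (24.3 ± 20.5 TPM), *Agrn* (16.5 ± 0.949 TPM), *Dok7* (14.1 ± 3.94 TPM) and *Chrng* (11.5 ± 0.207 TPM) came lower. At d8 in WT cells *Chrna1* reached 965 ± 71.3 TPM and *Chrng* moved up to the next place at 338 ± 97 TPM, above *Chrnd* at 269 ± 33.0 TPM by less than their spread. Then followed *Chrnb1* (222 ± 10.5 TPM), *Rapsn* (214 ± 2.02 TPM), *Lrp4* (114 ± 16.9 TPM) and *Musk* (76.9 ± 6.61 TPM), with *Dok7* (28 ± 11.6 TPM) and *Agrn* (24.7 ± 0.742 TPM) at the lower end. *Chrne* had 12 counts in WT d8 replicate 2, 2 in replicate 1 and at most 3 in each other library, under the filter of the test in both tables.

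**Figure D2:**
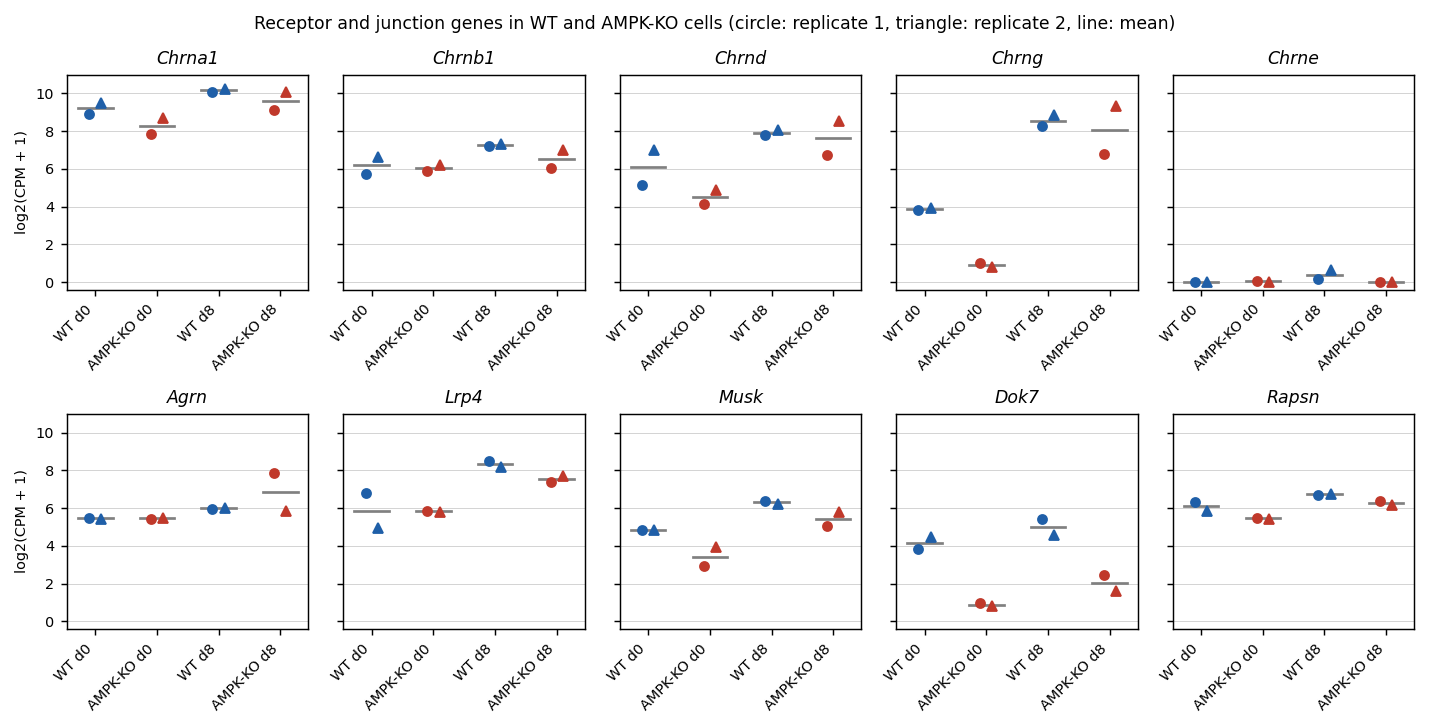
Level of each gene, as log2(CPM + 1), in the 8 libraries of WT and AMPK-KO cells at d0 and d8; circles are replicate 1, triangles replicate 2 and lines the mean of each group. The points of *Dok7* in AMPK-KO cells lie below those of WT cells at both days, and those of *Chrng* are near 1 CPM only in AMPK-KO cells at d0.

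The first comparison asked how the loss of AMPK changed these genes in myoblasts. *Dok7* was the member that passed the test: it had 13.3 and 20.9 CPM in WT and 0.942 and 0.748 CPM in AMPK-KO cells, counts of 275 and 385 against 18 and 16. The groups did not overlap, and the fitted level fell by 4.33 on the log2 scale (SE 0.53, 20.1-fold, adjusted p = 0.0111). Of all 14329 genes tested, 3.52% were called, 2.83% lower and 0.698% higher in AMPK-KO cells, beside 1 lower and 0 higher of the 9 members tested. The test was the quasi-likelihood test of edgeR with a threshold at an adjusted p of 0.05 over all genes. The call of *Dok7* was lost when either AMPK-KO d0 library was left out, which leaves that group 1 library. Its fitted change was then -4.51 without replicate 1 and -4.19 without replicate 2.

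Among the subunits, *Chrng*, the embryonic γ subunit, showed the widest gap between the groups in myoblasts without passing the threshold. It had 13.0 and 14.0 CPM in WT and 1.05 and 0.748 CPM in AMPK-KO cells, a log2 difference of -3.91 (SE 0.86, 95% interval -5.94 to -1.88, adjusted p = 0.0605). The libraries of each group lay close together and the groups were far apart. *Chrng* was called when AMPK-KO d8 replicate 1 or 2 was left out (adjusted p of 0.00289 and 0.00262), which changes the shared estimate of the spread, with a replicate block (adjusted p = 0.0439), and also by DESeq2. *Chrnd*, the δ subunit, had 34.5 and 127 CPM in WT and 16.6 and 28 CPM in AMPK-KO cells (log2 difference -1.86, SE 0.74, adjusted p = 0.219), and here the WT libraries differed from each other by more than the groups did at their nearest. With each library left out, the difference of *Chrnd* ranged from -2.52 to -0.63. *Chrna1*, the acetylcholine-binding α1 subunit, had 488 and 723 against 229 and 418 CPM (log2 difference -0.90, SE 0.40, adjusted p = 0.259). *Chrnb1*, the β1 subunit, had 52.0 and 98.1 against 59.1 and 73.4 CPM, and its groups overlapped.

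The kinase gene *Musk* had 27.9 and 27.7 CPM in WT and 6.70 and 14.1 CPM in AMPK-KO myoblasts (log2 difference -1.42, SE 0.38, adjusted p = 0.0981). The scaffold gene *Rapsn* had 80.7 and 56.7 against 44.2 and 42.0 CPM (log2 difference -0.67, SE 0.19, adjusted p = 0.115). Both were lower in each AMPK-KO library than in each WT library, yet neither passed edgeR's test. Without WT d0 replicate 2 the log2 difference of *Rapsn* was -0.90. DESeq2 called *Musk* (adjusted p = 0.00579) and *Chrnd* (adjusted p = 0.0298) lower beside *Chrng* and *Dok7*. It called 983 of the 25084 genes with a count lower, where edgeR called 405. *Lrp4*, the agrin receptor, had 111 and 29.6 CPM in the WT libraries, which lay on both sides of the AMPK-KO libraries at 56.6 and 54.6 CPM. *Agrn* was nearly level, at 43.7 and 42.6 against 42.5 and 44.1 CPM. In all, 6 of 9 members were lower without overlap, where 25.7% of all genes tested were (and 23.7% higher), and the median fitted log2 change of the members was -0.90 against -0.001 for all genes.

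At d8 the comparison of genotypes again called *Dok7*. It had 41.8 and 23.0 CPM in WT and 4.41 and 2.09 CPM in AMPK-KO cells, and it fell by 3.31 on the log2 scale (SE 0.48, 9.92-fold, adjusted p = 0.0149). Among all genes, 5.35% were called, 3.98% lower and 1.36% higher, beside 1 lower and 0 higher of 9 members. Without WT d8 replicate 1 the call of *Dok7* was lost, with a fitted change of -2.8. Of the members, 6 were lower without overlap, as were 27.9% of all genes tested, while 30% were higher. *Musk* had 83.3 and 74.3 against 32.5 and 55.4 CPM, and *Rapsn* 104 and 106 against 81.3 and 70.5 CPM, with adjusted p of 0.229 and 0.209. *Lrp4* had 359 and 293 against 164 and 205 CPM, with an adjusted p of 0.394. For *Musk*, *Rapsn* and *Lrp4* the WT libraries were all above the AMPK-KO libraries, but the model did not separate the groups. The difference of *Musk* was -0.49 without AMPK-KO d8 replicate 1 and -1.31 without replicate 2 (adjusted p = 0.592 and 0.146).

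For the δ and γ subunits at d8 the outcome turned on which AMPK-KO library was looked at. *Chrng* had 303 and 461 CPM in WT and 108 and 632 CPM in AMPK-KO cells, so that AMPK-KO replicate 1 was the lowest and replicate 2 the highest of the 4 libraries. *Chrnd* had the same order, at 218 and 261 against 104 and 372 CPM. *Agrn* had the opposite order in AMPK-KO cells, at 60.8 and 63.9 against 234 and 57.7 CPM. Without AMPK-KO d8 replicate 2 *Chrng* was called lower (log2 fold change -1.85, adjusted p = 0.0306) and *Agrn* higher (log2 fold change 1.88, adjusted p = 0.00704). Without replicate 1, neither was called, and the fitted differences turned to 0.75 and -0.09. Both libraries together gave log2 differences of -0.05 (SE 0.67) for *Chrng*, -0.01 (SE 0.71) for *Chrnd* and 1.23 (SE 0.54, adjusted p = 0.231) for *Agrn*. *Chrna1* (1085 and 1212 against 560 and 1076 CPM) and *Chrnb1* (147 and 158 against 65.3 and 125 CPM) were also lowest in AMPK-KO replicate 1, the library with the low sum of muscle markers. Without it their log2 differences were -0.07 and -0.27, and without replicate 2 they were -1.07 and -1.26, none of them called. The part of that library's muscle marker level in these values was not tested.

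Differentiation was then followed within each genotype. In WT cells every tested member was higher in both d8 libraries than in both d0 libraries, 9 of 9, where 31.3% of all genes tested showed that pattern and 30.2% its reverse. *Chrng*, *Lrp4* and *Musk* passed the test, 3 of 9 beside 5.78% of all genes called higher, and no member was called lower (6.58% of all genes, 12.4% in either direction). *Chrng* rose from 13.0 and 14.0 to 303 and 461 CPM, by 4.82 on the log2 scale (SE 0.80, 28.3-fold, adjusted p = 0.0161). *Lrp4* rose by 2.21 on the log2 scale (SE 0.54, adjusted p = 0.0419) and *Musk* by 1.5 (SE 0.37, adjusted p = 0.0437). With each library left out, the change of *Lrp4* ranged from 1.56 to 3.44. The other subunits had fitted differences of 0.92 (*Chrna1*), 1.03 (*Chrnb1*) and 1.57 (*Chrnd*), with adjusted p between 0.119 and 0.196. *Chrnb1* was called by DESeq2 (adjusted p = 0.0431), among 1336 genes that it called higher. *Dok7* (0.93), *Rapsn* (0.61) and *Agrn* (0.53) did not pass either, *Rapsn* being called without WT d0 replicate 1 (0.87, adjusted p = 0.0278). All 3 calls were lost without WT d0 replicate 2, WT d8 replicate 1 or WT d8 replicate 2, in edgeR fits that called 0, 2 and 0 of all genes and gave *Chrng* a change of 4.89, 5.06 and 4.46. The call of *Lrp4* was also lost without AMPK-KO d0 replicate 1 or 2 or AMPK-KO d8 replicate 1, and with only the 4 libraries compared (adjusted p = 0.0909). The call of *Musk* was also lost without WT d0 replicate 1. With the replicate number as a block in edgeR, *Chrna1* (adjusted p = 0.0402), *Chrnb1* (0.0324), *Chrnd* (0.0366) and *Rapsn* (0.0483) were called too. That made 7 of 9 members, beside 1135 of 14329 genes called higher, where 828 were called higher without the block.

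In AMPK-KO cells 4 of 9 members were called higher at d8, beside 4.81% of all genes, and none lower, beside 4.95% (9.76% in either direction). *Chrng* rose from 1.05 and 0.748 to 108 and 632 CPM, by 8.69 on the log2 scale (SE 0.99, adjusted p = 0.0179), the largest fitted change of a member in any comparison. *Chrnd* rose by 3.41 (SE 0.79, adjusted p = 0.0421), *Musk* by 2.08 (SE 0.38, adjusted p = 0.0263) and *Rapsn* by 0.82 (SE 0.19, adjusted p = 0.0443). *Dok7* went from 0.942 and 0.748 to 4.41 and 2.09 CPM, a log2 difference of 1.94 (SE 0.51, adjusted p = 0.0569). The d8 level of *Dok7* in AMPK-KO cells was thus still below both WT myoblast libraries. Of the 9 members, 8 were higher at d8 without overlap, beside 30.2% of all genes, and none was lower, beside 28.9%. Without AMPK-KO d0 replicate 1 no member and none of 15144 genes was called by edgeR, and without replicate 2 no member and 1 of 15056 genes, while the fitted change of *Chrng* was 8.92 and 8.47. The AMPK-KO d8 libraries, which stood apart from each other, moved these values. Without replicate 1, the library with low muscle markers, *Chrng* rose by 9.47 (adjusted p = 0.00026), *Chrnd* by 4.07, *Musk* by 2.42 and *Chrna1* by 1.74 (adjusted p = 0.0499), and *Rapsn* was not called (0.72, adjusted p = 0.146). Without replicate 2 *Chrng* rose by 6.89 (adjusted p = 0.000573) and *Agrn* by 2.41 (adjusted p = 0.00171), while *Chrnd* (2.19, adjusted p = 0.144), *Musk* (1.62, adjusted p = 0.086) and *Rapsn* (0.89, adjusted p = 0.11) were not called. DESeq2 called 8 members higher, all but *Chrnb1*, beside 1284 of the 25084 genes with a count. The calls of *Chrnd*, *Musk* and *Rapsn* were also lost without either WT d8 library, and *Lrp4* was called without either WT d0 library. With only the 4 libraries compared, edgeR lost *Chrnd*, *Musk* and *Rapsn* (adjusted p of 0.0530, 0.0603 and 0.0557) and called *Lrp4* (0.0412). With a replicate block *Chrna1* was called as well (adjusted p = 0.0252), beside 976 of 14329 genes called higher.

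Whether the change from d0 to d8 differed between genotypes was tested as an interaction. No member passed, nor did any of the 14329 genes by edgeR (0% called, 729 at an unadjusted p under 0.05), while DESeq2 called 54 genes and 1 member, *Chrng*. For *Chrng* the change in AMPK-KO cells exceeded that in WT cells by 3.86 on the log2 scale (SE 1.09, 95% interval 1.29 to 6.44, adjusted p = 0.876 by edgeR). The comparison shares its d0 and d8 libraries with those above. Without AMPK-KO d8 replicate 1 the difference of *Chrng* was called (4.67, adjusted p = 0.0446), and without replicate 2 it was 2.07 (adjusted p = 0.329). The fitted differences of the other members ran from -0.50 for *Chrnb1* to 1.85 for *Chrnd*, each with a 95% interval that held 0.

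**Figure D3:**
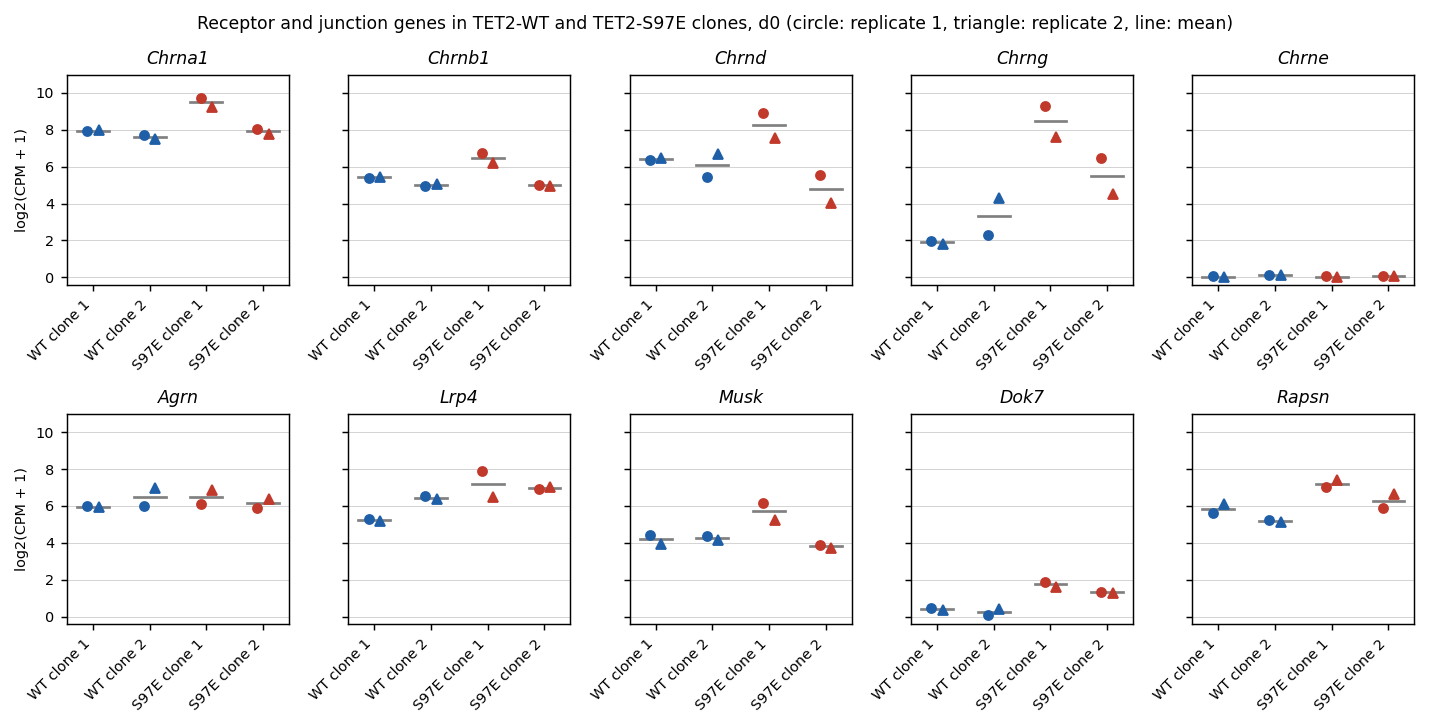
Level of each gene, as log2(CPM + 1), in the 8 libraries of TET2-WT and TET2-S97E clones at d0; circles are replicate 1, triangles replicate 2 and lines the mean of each clone. The points of *Chrng* and *Dok7* in TET2-S97E clones lie above all TET2-WT points, and those of *Chrna1*, *Chrnb1* and *Musk* are raised in TET2-S97E clone 1 but not in clone 2.

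The second experiment asked what the phosphomimic TET2-S97E changed on the AMPK-/- background at d0. *Chrng* and *Rapsn* were called higher in TET2-S97E cells, beside 3.71% of the 13433 genes tested, and none of the 9 members lower, beside 3.28% (6.98% in either direction). *Dok7* was called higher as well, but it is not counted here, since it passed the filter on low counts through the TET2-S97E libraries alone. *Chrng* had 2.89, 2.56, 3.94 and 19.0 CPM in TET2-WT and 629, 194, 89.2 and 21.5 CPM in TET2-S97E libraries, clone 1 before clone 2. The groups nearly met, since TET2-WT clone 2 replicate 2 lay just under TET2-S97E clone 2 replicate 2. *Chrng* rose by 5.03 on the log2 scale (SE 1.11, 32.8-fold, adjusted p = 0.0282), by 6.23 without TET2-WT clone 2 replicate 2 (adjusted p = 0.0171), and by 3.83 without TET2-S97E clone 1 replicate 1. In the same order, the mitochondrial share of counts was 1.14, 1.00, 1.38 and 2.15% in TET2-WT libraries. In TET2-S97E libraries it was 2.29, 2.12, 2.03 and 2.09%, and its part in the change of *Chrng* was not tested. The call of *Chrng* was lost without TET2-WT clone 1 replicate 1 or 2, TET2-WT clone 2 replicate 1 or TET2-S97E clone 1 replicate 1. With a replicate block in edgeR it was lost too (adjusted p = 0.0583).

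*Dok7* had 0.362, 0.264, 0.0458 and 0.321 CPM in TET2-WT and 2.67, 2.05, 1.51 and 1.44 CPM in TET2-S97E libraries. These are low counts, 8, 10, 1 and 9 against 53, 63, 30 and 44, but the groups did not overlap. *Dok7* rose by 2.91 on the log2 scale (SE 0.50, 7.52-fold, adjusted p = 0.0129), a difference that was built into its being tested. *Rapsn* had 47.2, 67.1, 36.1 and 34.1 against 128, 168, 57.9 and 101 CPM and rose by 1.3 (SE 0.33, adjusted p = 0.0436), although TET2-S97E clone 2 replicate 1 lay below the highest TET2-WT library. The call of *Rapsn* held without TET2-S97E clone 2 replicate 1. It was lost without any other single library and with a replicate block in edgeR (adjusted p = 0.0536). The call of *Dok7* held without each library in turn, which supports nothing, since the TET2-S97E libraries brought the gene into the test. DESeq2 called these 3 genes, with *Dok7* again not counted, and also *Chrna1* (adjusted p = 0.0306) and *Lrp4* (adjusted p = 0.0132). It called 1044 of the 25592 genes with a count higher, where edgeR called 498. Apart from *Dok7*, *Chrng* was the member without overlap between the genotypes, and 7.3% of all genes tested were higher and 7.99% lower in that way.

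These calls treat the 4 libraries of a genotype as independent, although 2 come from each clone. With counts summed per clone no member was called (adjusted p of 0.340 for *Chrng*, 0.285 for *Dok7* and 0.378 for *Rapsn*), in a fit that called none of all genes, and with clone as a random effect in limma-voom the adjusted p were 0.127, 0.0609 and 0.132. Without TET2-S97E clone 1 no member was called either, in a fit that called 800 of 14206 genes, and *Chrng* and *Dok7* had fitted differences of 2.96 and 2.52. Without TET2-S97E clone 2, 7 members were called higher, among 687 of all 14091 genes tested. The 7 include *Dok7*, whose difference was built into its being tested. Without TET2-WT clone 1 none was called, among 183 of 14224 genes. Without TET2-WT clone 2 the calls of *Chrng* (adjusted p = 0.0553) and *Rapsn* (adjusted p = 0.179) were lost, and *Dok7* and *Lrp4* (adjusted p = 0.0397) were called higher, among 319 of 14235 genes.

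The 2 TET2-S97E clones differed in the subunit genes and *Musk*. *Chrna1* had 852 and 603 CPM in clone 1 and 268 and 215 CPM in clone 2, and the TET2-WT libraries held 180 to 255 CPM. *Chrnb1* had 105 and 72.0 against 31.2 and 30.0 CPM, *Chrnd* 489 and 191 against 46.2 and 15.6 CPM, and *Musk* 71.9 and 36.5 against 13.8 and 12.3 CPM. For these 4 genes clone 1 stood alone, and clone 2 overlapped the TET2-WT libraries or lay below them. In the test of clone 2 against clone 1 of TET2-S97E, *Chrna1* was lower by a log2 fold change of -1.59 (SE 0.21, adjusted p = 0.00308), *Chrnb1* by -1.53 (SE 0.20, adjusted p = 0.00284), *Chrnd* by -3.46 (SE 0.63, adjusted p = 0.0128) and *Musk* by -2.05 (SE 0.32, adjusted p = 0.00716). That made 4 of 9 members lower, beside 2.82% of the 14459 genes tested, and none higher, beside 3.35% (6.17% in either direction). The call of *Chrnd* was lost without TET2-WT clone 1 replicate 2 (adjusted p = 0.0521). *Chrng* (log2 difference -2.90, SE 0.83, adjusted p = 0.0758) and *Rapsn* (-0.90, SE 0.27, adjusted p = 0.0933) were lower in clone 2 but were not called. Without overlap, 7 members were lower and none was higher in clone 2, beside 21.5% and 26.1% of all genes. *Chrng* was called without 1 of 4 libraries (TET2-WT clone 2 replicate 1 or 2, TET2-S97E clone 1 replicate 2 or clone 2 replicate 1), *Rapsn* without TET2-S97E clone 2 replicate 2, and *Lrp4* without TET2-S97E clone 1 replicate 2.

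Between the TET2-WT clones no member passed edgeR's test, and 0.858% of all genes were called, 0.463% higher and 0.394% lower in clone 2. Without overlap, 2 members were higher and 3 lower, beside 26.4% and 27.2% of all genes. At an unadjusted p under 0.05 there were 4 of 9 members, *Chrnb1*, *Chrng*, *Lrp4* and *Rapsn*, beside 2957 of the 14459 genes, and *Lrp4* was called by DESeq2 and when either library of TET2-S97E clone 1 was left out. *Lrp4* had 37.5 and 35.5 CPM in clone 1 and 90.9 and 80.9 CPM in clone 2 (log2 difference 1.23, SE 0.37, adjusted p = 0.136). In TET2-S97E libraries *Lrp4* had 237, 88.2, 122 and 128 CPM, and against TET2-WT as a whole it differed by 1.23 on the log2 scale (SE 0.39, adjusted p = 0.0895). *Chrng* differed by 0.53 between these clones without TET2-WT clone 2 replicate 2 and by 2.79 without replicate 1 (adjusted p = 0.872 and 0.111). *Agrn* had 63.4, 60.1, 63.1 and 127 CPM in TET2-WT and 67.3, 114, 59.1 and 83.4 CPM in TET2-S97E libraries, with a log2 difference of 0.05 (95% interval -0.59 to 0.69).

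**Figure D4:**
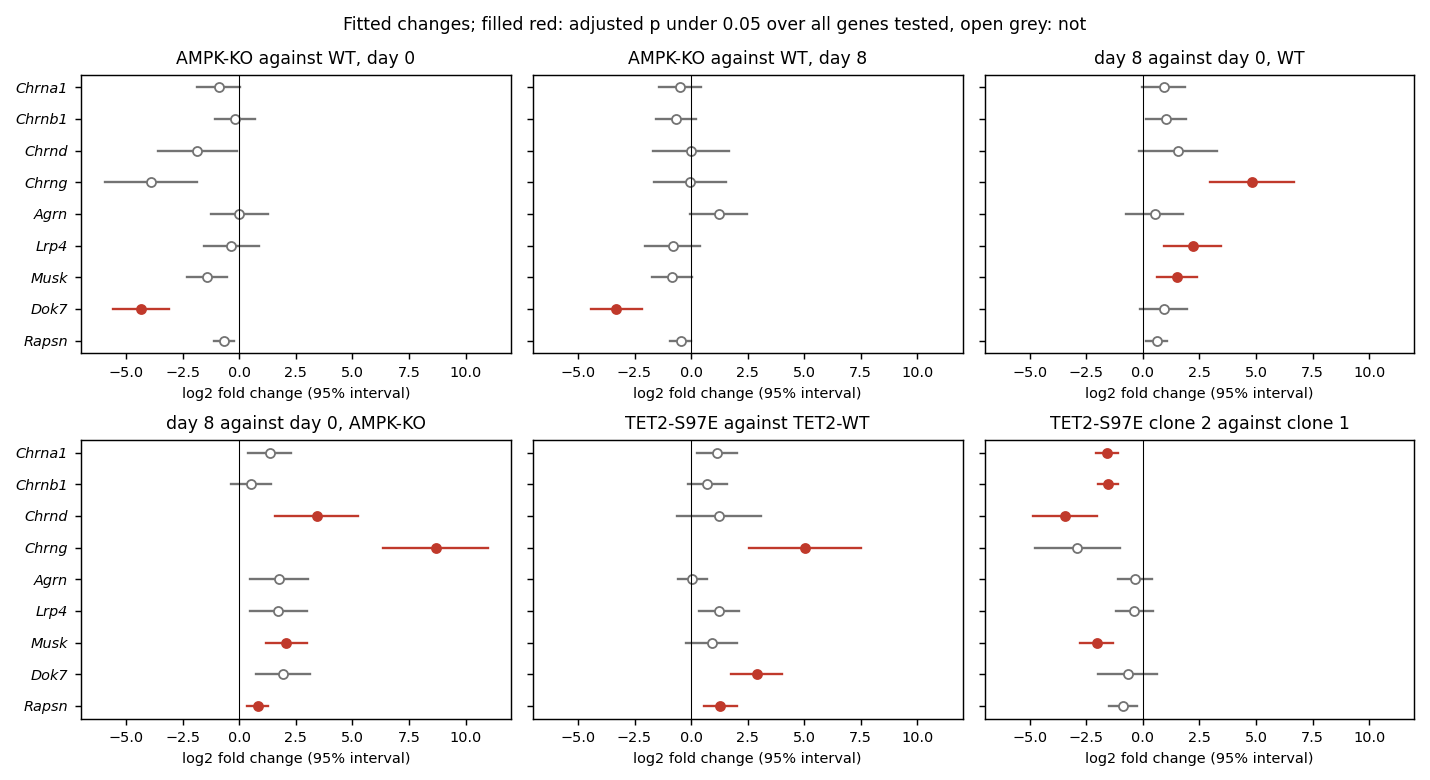
Fitted log2 fold changes (x axis) of the 9 tested genes in 6 comparisons; points are estimates, lines 95% intervals, filled red marks an adjusted p under 0.05 over all genes tested and open grey the rest. *Dok7* is red below 0 in both comparisons of AMPK-KO with WT cells. It is also red above 0 in TET2-S97E against TET2-WT, where it passed the filter on low counts through the TET2-S97E libraries alone and is not counted.

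The make-up of the receptor transcripts shifted with the level of *Chrng*. Per length, *Chrng* stood at 0.0280 and 0.0205 of the TPM of *Chrna1* in WT myoblasts and at 0.294 and 0.4 in WT cells at d8. The AMPK-KO libraries had a ratio of 0.00481 and 0.00189 at d0 and of 0.203 and 0.619 at d8. In TET2-WT cells the ratio was 0.0126 and 0.0106 in clone 1 and 0.0197 and 0.112 in clone 2. In TET2-S97E cells it was 0.778 and 0.339 in clone 1 and 0.351 and 0.105 in clone 2. Of the undifferentiated TET2-S97E libraries, clone 1 replicate 2 and clone 2 replicate 1 thus lay within the range of the d8 libraries, clone 1 replicate 1 above it and clone 2 replicate 2 below it.

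The ratio of *Chrng* to its neighbour *Chrnd* separated the groups further. It lay between 0.0211 and 0.297 in the d0 libraries of the first table, between 0.822 and 1.39 at d8, between 0.0226 and 0.148 in TET2-WT and between 0.803 and 1.52 in TET2-S97E libraries. In TET2-S97E clone 2, *Chrnd* had 46.2 CPM in replicate 1, within the TET2-WT range, and 15.6 CPM in replicate 2, below it. *Chrnb1* kept a narrower ratio to *Chrna1*, from 0.185 to 0.447 over all 16 libraries, with the highest values, 0.447 and 0.304, in AMPK-KO d0 libraries beside 0.307 in TET2-WT clone 2 replicate 2. The ε subunit took at most 0.122% of the summed counts of *Chrng* and *Chrne* at d8, in WT replicate 2. *Chrne* had at most 3 counts in each AMPK-KO and TET2 library. AMPK-KO cells at d8 had 2649 and 13011 counts of *Chrng* beside 0 of *Chrne*, so no γ-to-ε change was seen there.

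**Figure D5:**
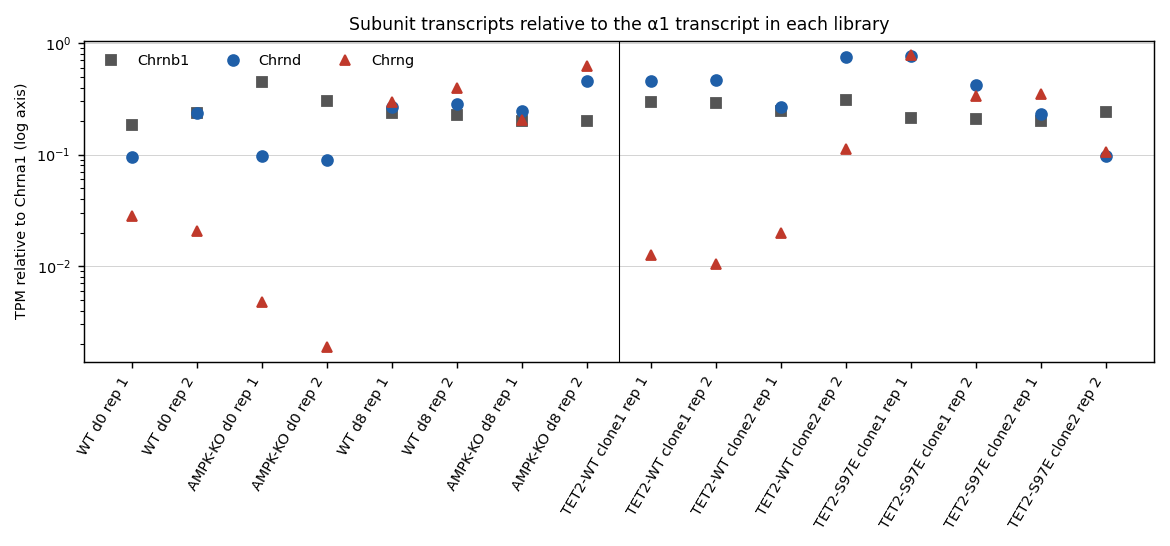
TPM of *Chrnb1*, *Chrnd* and *Chrng* relative to that of *Chrna1* in each of the 16 libraries (y axis logarithmic; the vertical line divides the 2 tables). The triangles of *Chrng* lie between 0.00189 and 0.112 in the d0 libraries of WT, AMPK-KO and TET2-WT cells and between 0.105 and 0.778 in the d8 and TET2-S97E libraries.

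Other genes of the junction were read from lists written with earlier results of these data known. Of the 8 genes of acetylcholinesterase and the synaptic basal lamina, 2 were called higher in WT cells at d8, beside 5.78% of all genes. Both, *Ache* and *Colq*, passed the filter on low counts through the WT d8 libraries alone, so their calls support nothing about the list. *Ache*, the enzyme that breaks down acetylcholine, had 1 and 0 counts at d0 and 40 and 62 at d8, at least 16.6-fold higher with the d0 libraries set to a floor of 3 counts each. *Colq*, the collagen tail that anchors the enzyme, had 2 and 1 counts at d0 and 158 and 169 at d8, at least 54.1-fold higher. In AMPK-KO cells at d8 *Colq* had 2 and 4 counts and was called lower than in WT (log2 fold change -5.88, SE 0.56, adjusted p = 0.00463), and *Ache* had 3 and 4 counts (adjusted p = 0.0554). The difference between the genotypes in the change from d0 to d8 passed for neither gene (adjusted p of 0.876 for *Colq* and 0.892 for *Ache*). *Lama4*, a laminin chain of muscle basal lamina, had 382 and 55 counts in WT myoblasts against 0 in both AMPK-KO libraries, and 416 and 564 against 0 and 1 at d8, at least 184-fold lower at d8. *Lama4* passed the filter through the WT libraries alone, and the WT libraries at d0 differed widely. It had at most 8 counts in each TET2 library.

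Among the 13 genes of signalling downstream of MuSK, *Fyn*, a kinase of the Src family, was called lower in AMPK-KO cells at d0 (log2 fold change -1.15, SE 0.18, adjusted p = 0.0215) and at d8 (-1.32, SE 0.18, adjusted p = 0.0128). The other 12 were not called between these genotypes. The list thus held 1 lower call of 13 on each day, where the share over all genes was 2.83% (d0) and 3.98% (d8). *Abl1* was called lower at d8 in WT cells and *Dvl1* and *Pdzrn3* higher at d8 in AMPK-KO cells. *Pdzrn3*, a ubiquitin ligase that binds MuSK, was higher and the kinase gene *Pak1* lower in TET2-S97E cells, by log2 fold changes of 0.61 and -0.61. Among the 8 postsynaptic scaffold genes, *Dag1* (dystroglycan) was called higher at d8 in WT (1.21, SE 0.23) and in AMPK-KO cells (1.83, SE 0.23) and in TET2-S97E cells (1.23, SE 0.20), with adjusted p between 0.0102 and 0.0219. *Dmd* (dystrophin) had 0 and 0 counts in WT at d0 and 179 and 369 at d8, at least 88.4-fold higher. The sodium channel gene *Scn4a*, at a mean of 0.386 CPM in WT at d0, rose too (log2 fold change 6.17, adjusted p = 0.0303). The WT d0 libraries alone were too low to bring either gene past the filter on low counts. The rises of *Dmd* and *Scn4a* thus support nothing about the list. *Sntb2* was the scaffold gene called between AMPK-KO and WT cells, higher at d8 by 0.92 (adjusted p = 0.0343). *Sntb1* was called higher at d8 in AMPK-KO cells. None of 7 tested neuregulin and ETS genes was called between days or genotypes. Of all genes, 3.52% and 5.35% were called between AMPK-KO and WT cells at d0 and d8. Over time 12.4% were called in WT and 9.76% in AMPK-KO cells, and 6.98% in TET2-S97E against TET2-WT cells. Beside these shares, the lack of a call among 7 genes says nothing about the list. Of 5 glycosylation genes linked to congenital myasthenia, *Alg2* was called lower in TET2-S97E cells (-0.58, adjusted p = 0.0393). With counts summed per clone, none of the calls of *Pdzrn3*, *Pak1*, *Dag1* and *Alg2* in TET2-S97E cells held. Of 11 neuronal receptor subunits, *Chrnb2* passed the filter on low counts, and it was called in no comparison.

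Of the 10 tested regulators of receptor gene transcription, 3 were called lower in AMPK-KO cells at d0 (2.83% of all genes were) and 1 at d8 (3.98% were), and the median of the list at d8 was 0.01. *Myod1* had 77.5 and 133 CPM in WT and 7.90 and 13.6 CPM in AMPK-KO myoblasts and was called lower there (log2 fold change -3.29, SE 0.45, adjusted p = 0.0147). *Myog*, the gene of myogenin, had 29.5 and 19.6 against 0.628 and 0.561 CPM and was called lower as well (-5.36, SE 0.68, adjusted p = 0.0116). *Hdac9*, a repressor of muscle genes, was called lower on both days, by log2 fold changes of -3.45 at d0 (adjusted p = 0.0109) and -2.5 at d8 (adjusted p = 0.0187). At d8 *Myog* was called higher than at d0 in WT (3.8, SE 0.56) and in AMPK-KO cells (7.74, SE 0.72), *Myod1* in AMPK-KO cells (3.01, SE 0.44), and the E-box partner gene *Tcf3* was called lower in WT cells (-0.88, SE 0.20).

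In TET2-S97E cells *Myod1* had 147, 145, 27.5 and 29.1 CPM, against 7.14, 10.4, 18 and 26.2 CPM in TET2-WT cells, and it was called higher (2.5, SE 0.65, adjusted p = 0.0496). *Myod1* was also called lower in clone 2 than in clone 1 of TET2-S97E (-2.36, SE 0.23, adjusted p = 0.00117), and called higher in clone 2 than in clone 1 of TET2-WT (1.32, adjusted p = 0.0388). *Myog* had 0.407, 0.633, 2.11 and 13.9 CPM in TET2-WT and 141, 180, 56.6 and 42.1 CPM in TET2-S97E cells (4.61, SE 1.04, adjusted p = 0.0307), and TET2-WT clone 2 replicate 2 was the highest TET2-WT library for it as for *Chrng*. *Erbb3*, a neuregulin receptor, *Id2*, *Sntb1*, *Dag1* and *Abl2* were called lower and *Nrg1* and *Nid2* higher in clone 2 than in clone 1 of TET2-S97E. Beside these values stand the 10 muscle markers, of which 3 were called lower in AMPK-KO cells at d0 (2.83% of all genes were) and none between AMPK-KO and WT cells at d8 (5.35%). At d8 against d0, 6 were called higher in WT (5.78%) and 7 in AMPK-KO cells (4.81%). In TET2-S97E cells 6 were called higher (3.71%), and 4 were called lower in clone 2 than in clone 1 of TET2-S97E (2.82%). *Myod1* and *Myog* are in both the marker list and the list of regulators, so the counts of the lists are not separate evidence. No call of TET2-S97E against TET2-WT in this paragraph held with counts summed per clone. The 10 muscle markers summed to 8114 and 4346 CPM in TET2-S97E clone 1, 2673 and 1297 CPM in clone 2 and 1034 to 1478 CPM in TET2-WT libraries. The part of this muscle marker level in the changes of the receptor genes was not tested.

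Levels of the members were also compared across the 16 libraries, on log2(CPM + 1) with each table centred on its own mean. These correlations are descriptions, since the libraries share groups and clones. *Chrna1* ran closest with *Musk* (r = 0.93), *Chrnb1* (r = 0.92), *Chrnd* (r = 0.88) and *Chrng* (r = 0.85). *Agrn* ran with none of the other members closely (r = 0.00 to 0.37). Among the 11806 genes tested in both tables with a mean of at least 1 CPM in each, those with the pattern most like *Chrng* were *Mylpf* (r = 0.99), *Hfe2* (r = 0.99) and *Mybph* (r = 0.99), of which the first encodes a fast myosin light chain and the last a myosin-binding protein. For *Chrna1* they were *Hsf2bp* (r = 0.96), *Actn3*, the fast fibre α-actinin (r = 0.95), and *Des* (r = 0.95), and for *Chrnb1* they were *Des* (r = 0.94), *Rptor* (r = 0.93) and *Hsf2bp* (r = 0.93). For *Chrnd* they were *Rptor* (r = 0.94), *Msi2* (r = 0.93) and the laminin-binding integrin gene *Itga7* (r = 0.92), for *Lrp4* *Enah* (r = 0.93), *Ncam1* (r = 0.92) and *Susd6* (r = 0.92), for *Musk* *Arl6ip5* (r = 0.95), *Svil* (r = 0.94) and *Actn3* (r = 0.94), for *Dok7* *Mgam* (r = 0.96), *Endog* (r = 0.94) and *Cd82* (r = 0.94), and for *Rapsn* *Pisd* (r = 0.90), *Shisa4* (r = 0.90) and *Olfm1* (r = 0.88).

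For *Agrn* the 3 genes were *Brd1* (r = 0.93), *Irf9* (r = 0.87) and *Ddx58* (r = 0.85), and the last 2 are part of the interferon response. In AMPK-KO d8 replicate 1, where *Agrn* had 234 CPM, *Irf9* had 68.2 CPM and *Ddx58* 86.7 CPM. In AMPK-KO d8 replicate 2, where *Agrn* had 57.7 CPM, *Irf9* had 11.8 CPM and *Ddx58* 14.3 CPM. In the other 14 libraries *Irf9* had 5.20 to 16.5 CPM and *Ddx58* 7.28 to 25.6 CPM. The high value of *Agrn* in the first table was thus found in the library with the highest *Irf9* and *Ddx58*, and the part of that library in the likeness was not tested.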

How the data were processed

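Ribosomal RNA-depleted total RNA was sequenced from both ends. Per the labels and the study's methods, the authors trimmed reads with Trim Galore 0.4.5, aligned them to GRCm38 with STAR 2.5.3a and counted them with featureCounts 1.5.3 on GENCODE M12. The deposited values are raw whole-number counts per gene, in 1 table per experiment; use of strand and of reads with several alignments is not given in the sources used here. Symbols and exons came from GENCODE M21 (49326 of 49585 identifiers matched) and promoter windows from RefSeq (GRCm38.p6; 7 of 10 members matched). Counts were analysed with edgeR 4.0.16 in R 4.3.3 (TMM factors, filterByExpr, glmQLFit, glmQLFTest), p-values being adjusted by Benjamini-Hochberg over every gene tested, with a threshold of 0.05. The first table was fitted with 4 groups (4 residual degrees of freedom), the second with genotype (6) or clone (4). Standard errors came from the fit. Exact permutation of 4 libraries in 2 groups cannot give 1 gene a two-sided p below 0.33. Deviations from the group means of same-numbered WT and AMPK-KO libraries correlated across genes at r = 0.119 to 0.324 over the 6 pairs of groups, so the fit with a replicate block is given where it changed a call; the labels tie no number to a batch. Replicates differed beyond sampling noise (chi-square per degree of freedom 31.8 to 117). Members and lists were chosen with earlier results of these data known. Named are all members, from each list at most 3 genes per comparison with the lowest adjusted p and every called gene where 5 or fewer were called, and the 3 genes most like each member. Alternatives were DESeq2 1.42.0, its size factors, upper-quartile scaling, other filters, the exclusion of mitochondrial and abundant noncoding RNAs, a replicate block, fewer libraries, clone handling with limma 3.58.1, and each library left out.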

Additional observations from a re-analysis of the deposited data

Results flagged for a closer look

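In the groups of 4 libraries of the second table, the highest or lowest library was compared with the rest for the 9 tested members, 18 groups in all, of which chance marks about 1 in 20. The same library stood apart from the others for 2 of the genes. *Chrng* had 19.0 CPM in TET2-WT clone 2 replicate 2, far from the other TET2-WT libraries at 2.56 to 3.94 CPM. *Agrn* had 127 CPM in TET2-WT clone 2 replicate 2, against 60.1 to 63.4 CPM in the others. That library also had the highest *Myog* (13.9 CPM) and *Acta1* (111 CPM) of the TET2-WT libraries, and their part in the values of *Chrng* and *Agrn* was not tested.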

How the results depend on the processing

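Of 1095 refitted member changes, 920 kept their direction and side of the threshold, 66 lost a call, 73 gained one and 36 changed sign, none of them a change called in the report. The cause was not tested except where fewer libraries or genes entered. Scaling by DESeq2 size factors or upper quartiles moved no member count by over 1.5 times. In the order AMPK-KO against WT at d0 and d8, d8 against d0 in WT and AMPK-KO cells, and their difference, the members called were 1, 1, 3, 4 and 0, and 3 for TET2-S97E against TET2-WT, 4 and 0 between the TET2-S97E and the TET2-WT clones. In this section the counts for TET2-S97E against TET2-WT include *Dok7* wherever it was called. The Results do not count it, since it passed the filter through the TET2-S97E libraries alone. Without a filter on low counts they were 5, 5, 7, 8 and 3 in the first table and 4 between TET2-WT clones. With DESeq2 they were 4 for AMPK-KO at d0, 8 for AMPK-KO cells at d8 against d0, 1 for the difference, 5 for TET2-S97E and 1 for TET2-WT clones. With only the 4 libraries compared they were 2 at d0 and 2 for AMPK-KO cells over time. For TET2-S97E they were 0 with counts summed per clone, 0 with clone as a random effect, 0 without TET2-WT clone 1, 0 without TET2-S97E clone 1 and 7 without TET2-S97E clone 2. With each library left out, where a lone library is assumed to vary like the other groups, the ranges were 0 to 2, 0 to 3, 0 to 3, 0 to 5 and 0 to 1 for the AMPK experiment, then 1 to 3, 3 to 6 and 0 to 1 for the TET2 experiment.

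Replicate numbers 1 and 2 are shared by all groups, but nothing says that they mark a batch. Deviations of same-numbered TET2 libraries correlated at r = -0.0355 to 0.512. With a replicate block the members called were 2 for AMPK-KO against WT at d0, where *Chrng* was added (adjusted p = 0.0439), 7 for d8 against d0 in WT cells, where *Chrna1* (0.0402), *Chrnb1* (0.0324), *Chrnd* (0.0366) and *Rapsn* (0.0483) were added, and 1 for TET2-S97E, where *Chrng* (0.0583) and *Rapsn* (0.0536) were lost. The block also added *Chrna1* for AMPK-KO cells over time (0.0252) and *Rapsn* between the TET2-S97E clones (0.0206).

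Over all genes, in the same order, 505, 766, 1771, 1398, 0, 938, 892 and 124 were called. Counts that moved by over 1.5 times were, without the filter, 2026, 2503, 3293, 3039 and 449 in the first table and 1680 and 1627 between clones, and with DESeq2, 1325, 1569, 2394 (AMPK-KO cells over time), 54, 1910, 1355 and 895. With at least 10 counts in every library they were 204 and 277 for AMPK-KO against WT, with only the 4 libraries 335 at d0 and 788 for AMPK-KO cells over time, and with a replicate block 1540 and 677 between clones. For TET2-S97E they were 0 summed per clone, 166 with the random effect, 183 without TET2-WT clone 1 and 625 without TET2-WT clone 2. With each library left out they ranged over 17 to 613, 107 to 902, 0 to 2260, 0 to 1737, 0 to 6, 304 to 1092, 472 to 1014 and 0 to 313.

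*Agrn* turned to -0.0026 at d0 with at least 10 counts in every library. For TET2-S97E, *Agrn* turned to -0.232 without TET2-WT clone 1 and to -0.156 without TET2-S97E clone 1, and *Chrnb1*, *Chrnd* and *Musk* turned to -0.267, -1.36 and -0.458 without TET2-S97E clone 1. With each library left out, the log2 changes that changed sign ranged for AMPK-KO against WT at d0 *Chrnb1* -0.574 to 0.354, *Agrn* -0.0453 to 0.0233 and *Lrp4* -0.998 to 0.901, for AMPK-KO against WT at d8 *Chrnd* -1.24 to 0.654, *Chrng* -1.85 to 0.747 and *Agrn* -0.0931 to 1.88, for d8 against d0 in AMPK-KO cells *Chrnb1* -0.0463 to 0.926, for the difference of changes *Chrna1* -0.155 to 0.953, *Agrn* -0.0819 to 1.88, *Lrp4* -1.7 to 0.147 and *Rapsn* -0.0434 to 0.403. In the TET2 experiment they ranged for TET2-S97E against TET2-WT *Agrn* -0.163 to 0.379, for the TET2-S97E clones *Agrn* -0.67 to 0.0844 and *Lrp4* -0.919 to 0.514, for the TET2-WT clones *Chrnd* -1.02 to 0.224, *Musk* -0.201 to 0.31 and *Dok7* -2.63 to 0.0434. Low counts limit *Chrne* in all libraries and *Dok7* in TET2-WT cells.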
